A study of Mus musculus with 36 samples.

Results

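The 8 samples of embryonic day 9.5 (E9.5) were analysed: head, spine, organs and extraembryonic tissue (EE), each once with the *Wnt1DR* allele inherited from the father (+/DR) and once with it inherited from the mother (DR/+). They were chosen by their labels and make up 8 of the 36 samples of the series, the others being adult tails, sperm and oocytes. *Wnt1DR* carries the repeats and the differentially methylated domain (DMD) of the mouse *Rasgrf1* imprinting control region, targeted in v6.5 embryonic stem cells to the *Wnt1* gene, which is not imprinted, with the neo selection cassette later removed. All 8 samples were heterozygous, so each also held a wild-type chromosome, which the allele-specific PCR was designed not to amplify. There was 1 sample for each tissue and transmission. The sources used here do not give the number of embryos behind a sample, nor whether the tissues of one transmission came from the same embryos, so the spread between tissues is the error available here. One PCR product holds no marker of tissue, and the labelled tissues could not be checked.

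An imprinting control region keeps a different methylation state on the maternal and the paternal chromosome. At *Rasgrf1*, which encodes a guanine nucleotide exchange factor, the paternal copy is methylated and the maternal copy is not, and the repeats beside the DMD are needed for the paternal methylation to be set. After fertilization much of the genome loses methylation and gains it again around implantation, while imprinted regions keep theirs. The extraembryonic lineages, which form the placenta and the yolk sac, separate early from the embryo proper and are known for lower genome-wide methylation. EE is set beside head, spine and organs here to compare the paternal state of the transplanted DMD between these samples. The sources used here do not say which extraembryonic tissues or lineages EE held.

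The sequence below is the unconverted reference that the reads were aligned to, shown because every result is a state of its CpGs. It matched once in mouse chromosome 9 of build NCBIM37, at 9:89774437-89774686 on the plus strand, where no annotated gene overlaps. The next gene is *Rasgrf1*, 29.9 kb further on (89804613 to 89921814). In *Wnt1DR* this sequence sits at *Wnt1*, so the coordinates are those of the endogenous copy. Capitals mark the 20 CpGs used, numbered 1 to 20 from left to right; CpG 1 is at base 62 and CpG 20 at base 229. A further CpG at base 3 lies in the forward primer and was left out.

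Reference, bases 1 to 250: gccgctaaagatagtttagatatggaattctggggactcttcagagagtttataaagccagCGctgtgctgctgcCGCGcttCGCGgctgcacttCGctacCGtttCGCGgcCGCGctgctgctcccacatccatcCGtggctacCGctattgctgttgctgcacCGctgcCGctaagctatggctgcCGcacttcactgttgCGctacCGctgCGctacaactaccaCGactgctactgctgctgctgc

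Each of the 8 samples listed 38653 reads, and between 7031 and 8773 of them had an identity to the reference of at least 98% and readable CpG calls, giving 140549 to 175371 calls per sample. Cytosines outside CpG were left unconverted in 0.376% to 0.723% of calls, lowest in EE +/DR and highest in EE DR/+. Intervals are 95% Wilson intervals and cover counting error only, since the product was amplified and carried no molecular identifiers: reads are not independent molecules. All 12 pairs of samples of the same transmission differed in their counts of read patterns (chi-square 7.14 times its degrees of freedom or more), so no file was a copy of another; whether 2 samples came from the same DNA was not tested. The DR/+ head and EE samples stood apart in 2 further classes of listed reads, which did not enter the values below because their identity was under 98% or their calls could not be read. Reads that lacked the first 9 or 10 bases of the reference numbered 4864 in DR/+ head and 3568 in DR/+ EE, with a mean methylation of 76.0% and 19.9% over the 20 CpGs, against 0 to 8 such reads in each of the other 6 samples. Reads from the other end that covered the last 144 bases and 13 CpGs numbered 9687 in DR/+ head and 6282 in DR/+ EE, with a mean of 79.0% and 24.5%, against 3 to 11 in each of the others.

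In the reads that passed the identity limit, the paternally inherited allele was methylated and the maternally inherited allele was nearly unmethylated in all 4 tissues. The methylation level, the percent of CpG calls that were methylated, was 78.0% in head, 75.4% in spine, 77.5% in organs and 39.5% in EE of the +/DR embryos. In DR/+ it was 1.11% in head, 1.16% in spine, 1.16% in organs and 1.12% in EE. The lowest of the +/DR samples, EE, was far above all 4 DR/+ samples in these reads. The separation was smaller with the other reads: with those lacking the first bases added, DR/+ head was at 31.7% and DR/+ EE at 6.55%. Over all listed reads every DR/+ sample was higher: 38.9% in head, 23.0% in spine, 22.6% in organs and 14.2% in EE. EE +/DR was then at 41.3%. The paternal minus maternal difference was 76.9 percentage points in head, 74.2 in spine, 76.4 in organs and 38.4 in EE, a mean of 66.5 ± 18.8 (SD, n = 4 tissue pairs). Flipping the signs of the 4 pairs in every way, a two-sided exact permutation test, gave p = 0.125, and no smaller value is possible with 4 pairs. Among the 3 embryo proper pairs the mean was 75.8 ± 1.44 points (SD, n = 3), so most of the spread over 4 pairs came from EE.

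The +/DR samples divided into reads with no methylation and reads with nearly all CpGs methylated. Reads were sorted as in the study's account of sperm, by the percent of their CpGs that were methylated. Reads over 66% made up 79.5% of head, 78.1% of spine, 78.1% of organs and 37.7% of EE. Reads with no methylated CpG made up 15.3%, 15.6% and 12.1% of head, spine and organs, and 44.6% of EE. Reads from 33% to 66% were 1.33%, 1.35% and 1.57% in the embryo proper and 8.67% in EE. Reads above 0 and under 33% were 3.86%, 4.94% and 8.23%, against 9.07% in EE.

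EE lay outside the range of the other 3 tissues in all 4 classes. EE minus the embryo proper mean was -40.9 points for reads over 66% (SD of the 3 tissues 0.821) and 30.3 points for reads without methylation (SD 1.93). An exact two-sided permutation test of 1 sample against 3 gave p = 0.25 for both, which is the smallest it can give. For the level itself, EE minus the embryo proper (76.97% ± 1.42, SD, n = 3) was -37.5 points (exact permutation p = 0.25).

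The methylated reads of EE also carried fewer methylated CpGs. Within reads over 66%, the level was 96.8% in head, 95.03% in spine, 97.5% in organs and 90.4% in EE, a difference of -6.05 points (SD of the 3 tissues 1.29; exact permutation p = 0.25). Without the 3 leading mixed patterns of each sample, described below, the difference was -2.76 points (exact permutation p = 0.5). This was the smaller part of the difference in level. Reads over 66% brought 75.8 points of the level of the embryo proper and 34.1 points of that of EE. With the share of such reads that EE had and the level within them of the embryo proper, they would have brought 36.3 points; with the share of the embryo proper and the level of EE, 71.1 points.

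In DR/+ most reads of every tissue had no methylation. Reads with no methylated CpG made up 86.2% of head, 86.1% of spine, 87.0% of organs and 85.9% of EE. Reads over 66% were 18, 21 and 23 in number in head, spine and organs and 9 in EE, or 0.256%, 0.266%, 0.3198% and 0.103%. The interval of EE (0.0540% to 0.195%) overlapped those of head and spine, and not that of organs (0.213% to 0.479%). Cytosines outside CpG in those few reads were unconverted at 0.185% to 0.362%, below the level of all reads of each sample. These rates rest on 9 to 23 reads a sample, so a few calls set them, and the difference was not tested. The paternal minus maternal difference over the 4 tissues was -64.4 points for reads without methylation and 68.1 points for reads over 66% (sign-flip permutation p = 0.125 for each, n = 4 pairs).

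**Figure D1:**
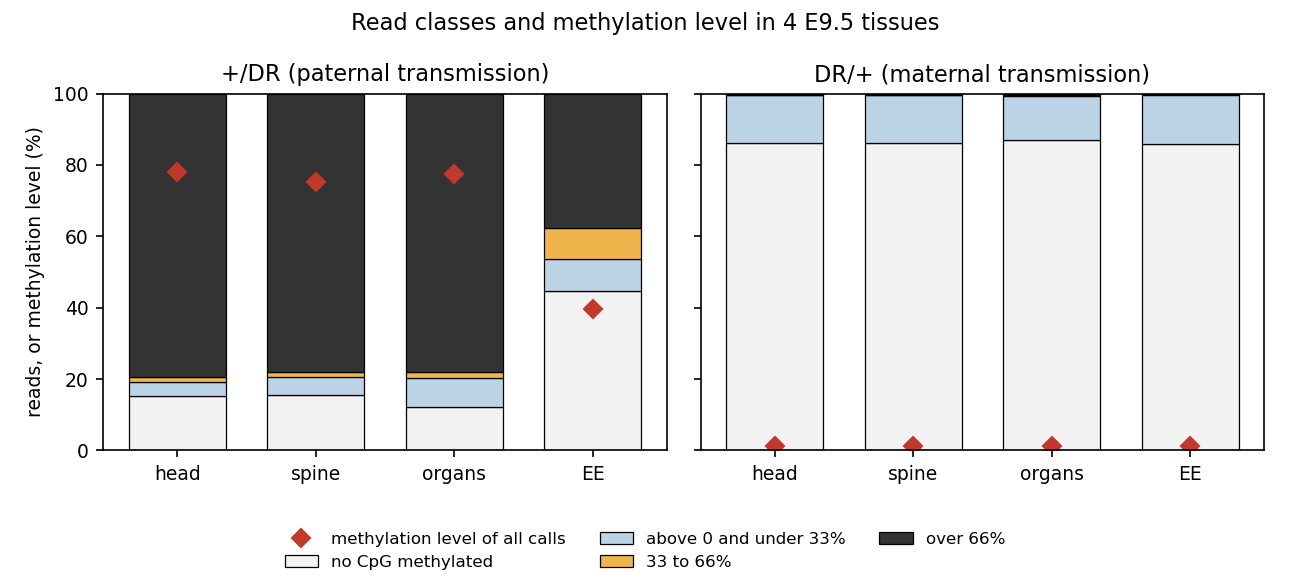
Stacked bars give the percent of reads in 4 classes by the share of their 20 CpGs that were methylated, for head, spine, organs and EE, with +/DR on the left and DR/+ on the right; red diamonds give the methylation level of all calls. EE +/DR holds 37.7% of reads over 66% against 78.1% to 79.5% in the other +/DR tissues, and the 4 DR/+ bars look alike.

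The number of methylated CpGs per read showed the same division, with a different shape in each tissue. Among reads with a call at all 20 CpGs, 45.8% of head, 31.9% of spine, 62.6% of organs and 4.50% of EE were methylated at every CpG. In head and spine each step down from 20 to 17 methylated CpGs had a smaller share of reads. Organs had a separate peak of 8.90% at 17 methylated CpGs, and EE had peaks of 7.56%, 11.0% and 19.4% at 11, 16 and 19. The variance of the count per read was 16.6, 15.6, 17.2 and 15.4 times that of independent CpGs in head, spine, organs and EE, where 20 is the value if every read were wholly methylated or wholly unmethylated. In DR/+ it was 5.88, 5.59, 6.68 and 3.51 times.

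**Figure D2:**
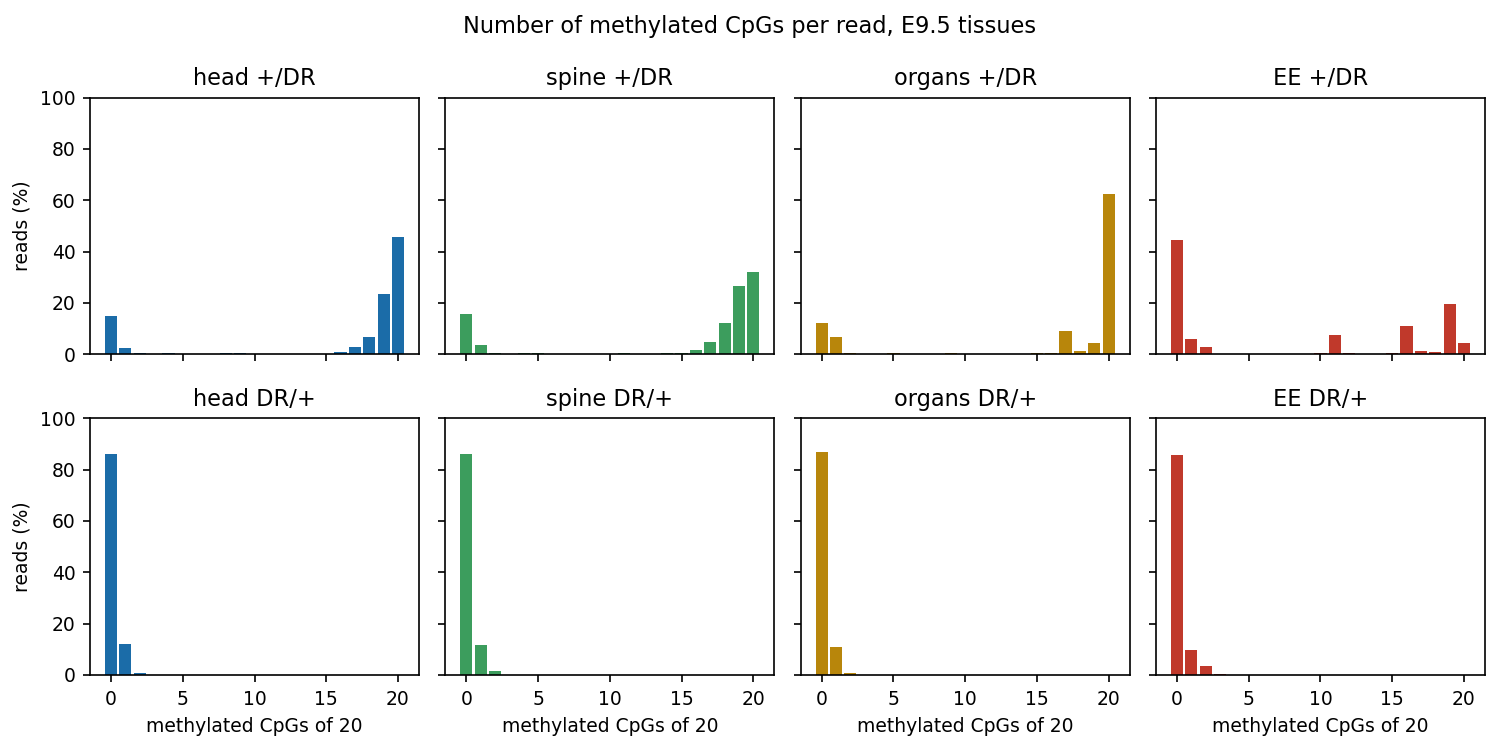
Bars give the percent of reads (vertical axis) with 0 to 20 methylated CpGs (horizontal axis) for the 4 tissues, +/DR above and DR/+ below, over reads with 20 calls. The +/DR panels have a peak at 0 and a second near 20, which in EE is broken into separate peaks at 11, 16 and 19; the DR/+ panels have a peak at 0 only.

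Calls within a +/DR read went together over the whole product. The median correlation between the calls of CpG pairs, over 190 pairs, was 0.83 in head, 0.78 in spine, 0.90 in organs and 0.77 in EE. For the 44 pairs over 100 bases apart it was 0.78, 0.75, 0.76 and 0.77, and for the 39 pairs up to 20 bases apart 0.85, 0.84, 0.96 and 0.82. The lowest single pair of EE was at 0.17, against 0.63, 0.56 and 0.59 in head, spine and organs. These are descriptions across CpGs of the same reads.

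Along the product, the embryo proper was level and EE was not. The mean of head, spine and organs ran from 71.4% ± 4.34 (SD, n = 3) at CpG 14 to 79.7% ± 1.74 at CpG 8. EE ran from 25.4% at CpG 3 to 48.4% at CpG 14, so the CpG that was highest in EE was the lowest in the embryo proper mean. Taken singly, spine was lowest at CpG 14, and head and organs at CpG 20. EE was below all 3 other tissues at 20 of 20 CpGs (100%), which are not independent, being read together. The gap was widest at CpG 8, where EE was at 26.5% and the embryo proper 53.2 points higher, and narrowest at CpG 14, at 23.0 points. Every +/DR sample was above every DR/+ sample at each CpG (20 of 20, 100%), by at least 23.3 points. Between head, spine and organs the profiles differed by 2.43 to 3.28 points per CpG on average, and by 9.16 points at most.

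The dips had different places in different tissues. Head was lowest at CpG 20 (74.2%), spine at CpG 14 (67.8%), and organs at CpG 20 (68.4%) with CpGs 14 and 19 close to it at 70.2% and 70.4%. In EE, CpGs 3, 8, 20, 15 and 12 were lowest, at 25.4%, 26.5%, 32.4%, 34.6% and 34.8%. The SD over the 20 CpGs was 1.98, 2.54 and 3.51 points in head, spine and organs and 6.61 points in EE.

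**Figure D3:**
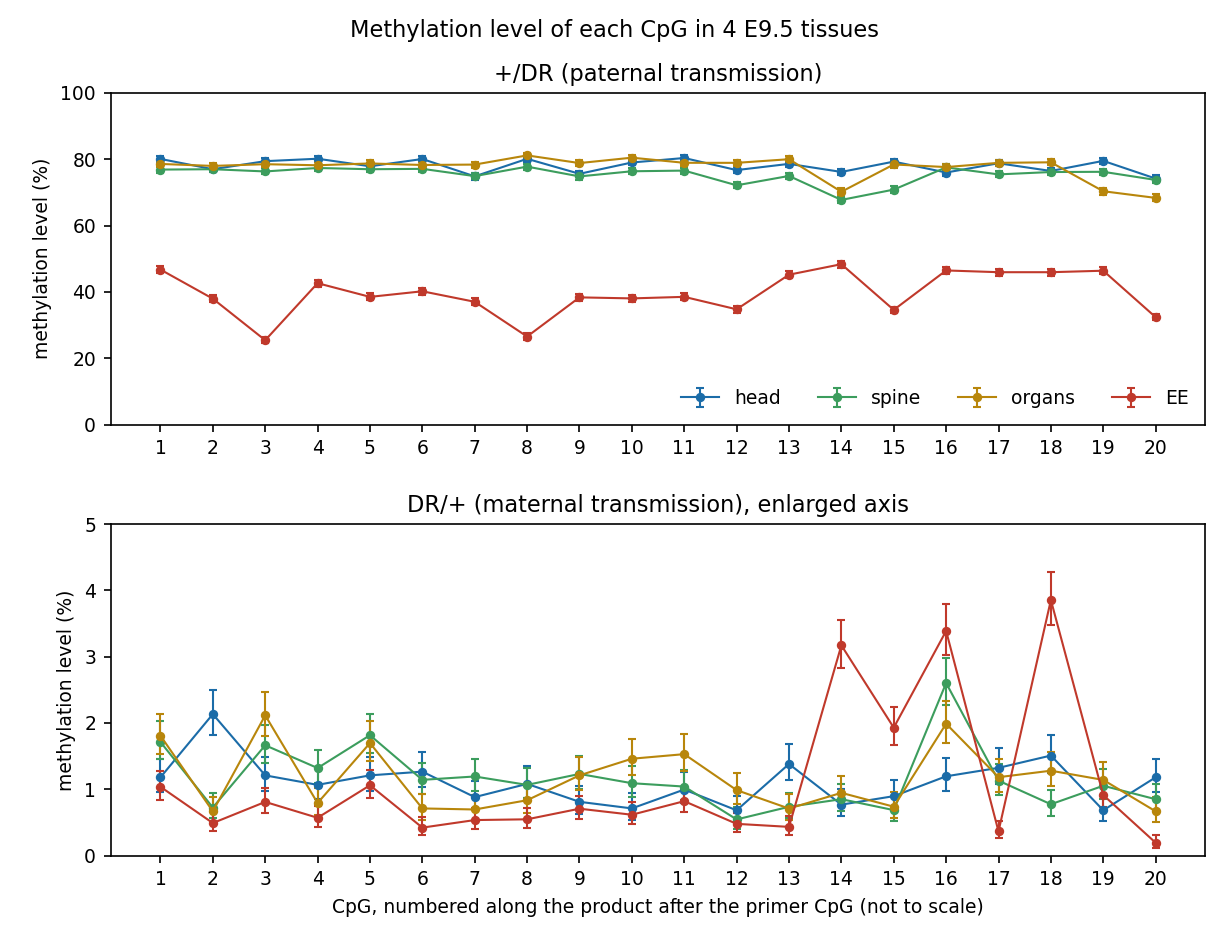
Points give the methylation level in percent (vertical axis) of CpGs 1 to 20 (horizontal axis) in head, spine, organs and EE, with 95% Wilson intervals as bars; the upper panel is +/DR and the lower DR/+, whose axis ends at 5%. EE +/DR lies below the other tissues at every CpG with dips at CpGs 3, 8, 12, 15 and 20, and EE DR/+ has peaks at CpGs 14, 16 and 18.

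The dips of EE traced to a few read patterns, a pattern being the states of all 20 CpGs in a read. Besides 3838 reads with no methylation (44.5% of the 8629 reads with 20 calls), 3 patterns led. In the first, 1060 reads (12.3%, 95% interval 11.6% to 12.99%) were methylated everywhere but at CpG 3. In the second, 939 reads (10.9%, 10.2% to 11.6%) lacked methylation at CpGs 8, 12, 15 and 20. The third, with 644 reads (7.46%, 6.93% to 8.04%), had methylation at CpGs 1, 4 and 12 to 20 and at no other. Fully methylated reads came next, with 388 reads.

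The 3 patterns are printed as a bisulfite read would show them from CpG 1 to CpG 20, below a fully methylated and an unmethylated read. They were worked out from the reference and the calls, since the files list calls and not read sequences. Capital C is a methylated cytosine, and all other cytosines read as t.

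All 20 methylated: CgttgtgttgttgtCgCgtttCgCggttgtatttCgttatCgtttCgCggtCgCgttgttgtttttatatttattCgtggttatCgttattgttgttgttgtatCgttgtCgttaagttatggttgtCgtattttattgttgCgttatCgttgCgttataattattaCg
None methylated: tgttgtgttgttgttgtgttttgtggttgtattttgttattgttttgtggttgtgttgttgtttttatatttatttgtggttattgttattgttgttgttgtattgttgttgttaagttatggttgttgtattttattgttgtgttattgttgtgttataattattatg
EE +/DR, 1060 reads: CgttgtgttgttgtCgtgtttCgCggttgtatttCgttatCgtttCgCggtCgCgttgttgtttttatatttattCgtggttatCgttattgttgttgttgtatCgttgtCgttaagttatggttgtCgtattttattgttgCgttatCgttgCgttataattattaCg
EE +/DR, 939 reads: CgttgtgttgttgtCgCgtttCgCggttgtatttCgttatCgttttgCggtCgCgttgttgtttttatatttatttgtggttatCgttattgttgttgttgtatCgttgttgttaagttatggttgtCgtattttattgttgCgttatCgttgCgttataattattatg
EE +/DR, 644 reads: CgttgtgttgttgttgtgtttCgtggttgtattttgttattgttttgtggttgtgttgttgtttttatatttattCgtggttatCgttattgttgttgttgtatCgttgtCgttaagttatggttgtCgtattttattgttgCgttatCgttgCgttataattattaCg

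These 3 patterns carried most of the methylation of EE +/DR. They held 65.4% of its reads with at least 4 methylated CpGs and brought 24.5 points of its level, and the reads without them were at 21.8%. They were 30.6% of EE reads with 20 calls. The 3 leading mixed patterns of head, spine and organs were 11.2%, 9.97% and 12.9% of theirs. The 3 EE patterns were picked as the most common mixed ones there, and were rare elsewhere. Of the reads with 20 calls, all 3 together were 10 reads of head, 89 of spine and 7 of organs. The second was in no read of those tissues. The third accounted for 644 of the 753 EE reads between 33% and 66%, so that within that class CpGs 1, 4 and 12 to 20 were methylated at 91.8% to 98.8% and the other 9 CpGs at 1.7% to 5.3%. In head, spine and organs that class held 109 to 118 reads, with single CpGs between 17.4% and 79.8%. Organs was also divided along the product, with CpGs 1 to 11 at 22.0% to 40.7% and CpGs 12 to 20 at 52.5% to 76.3%.

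The tissues differed in how many patterns made up their methylated reads. Among reads over 66%, 90% of reads were reached with 5 patterns in EE, 15 in head, 66 in spine and 2 in organs. In organs the 2 were the fully methylated read and a pattern without methylation at CpGs 14, 19 and 20, which had 606 reads (8.10%) and matched the dips of organs at those CpGs. In head and spine the leading mixed patterns lacked methylation at a single CpG: CpGs 7 and 20 with 336 reads each (4.14%) in head, and CpG 14 with 484 reads (5.73%) in spine. In the 12 adult +/DR tails the leading mixed pattern took 3.98% to 7.48% of reads with 20 calls. Reads with one pattern may come from one template amplified many times or from many templates alike; without molecular identifiers these cannot be told apart, and the numbers of templates were not tested.

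**Figure D4:**
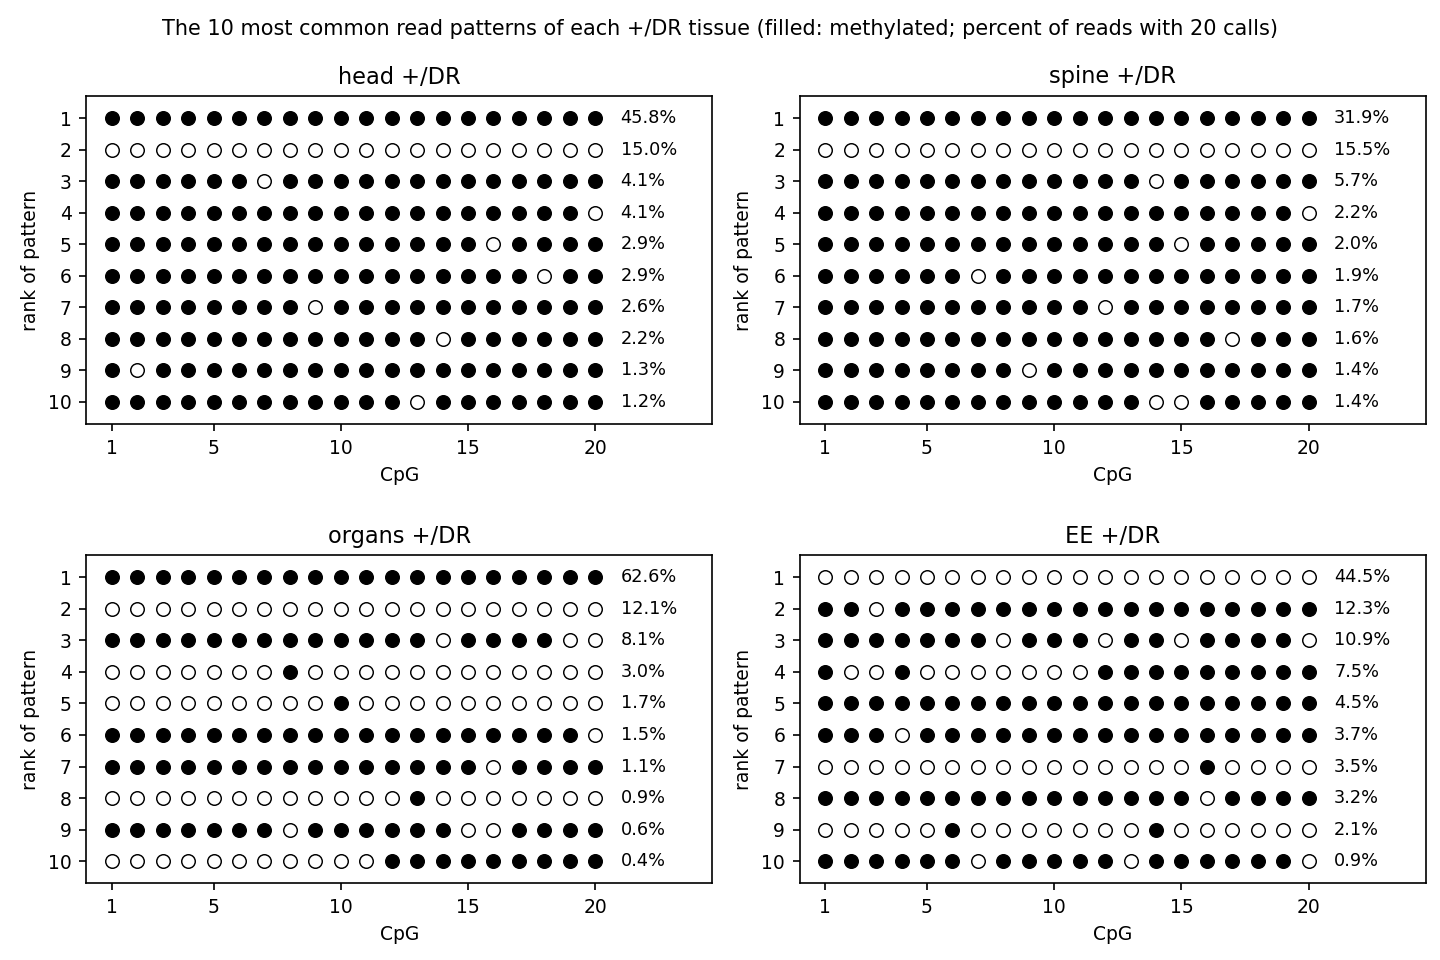
Rows are the 10 most common read patterns of each +/DR tissue, in order of their rank, with filled circles for methylated and open circles for unmethylated CpGs 1 to 20 and the percent of reads with 20 calls at the right. Head and spine list mostly reads that miss a single CpG, while EE lists 3 patterns of 12.3%, 10.9% and 7.5% with their own sets of unmethylated CpGs.

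Pattern diversity, the Shannon entropy of the patterns in bits, was 3.61 in head, 4.96 in spine, 2.50 in organs and 3.17 in EE of +/DR. In DR/+ it was 1.25, 1.29, 1.21 and 1.19. The paternal minus maternal difference was 2.33 ± 1.00 bits (SD, n = 4 pairs; sign-flip permutation p = 0.125), positive in each tissue. EE lay inside the range of the embryo proper: EE minus its mean was -0.518 bits (SD 1.23; exact permutation p = 0.75), and 0.117 bits without spine. The place of EE depended on the measure: in windows of 4 CpGs it had the highest entropy, 1.77 bits against 1.18 to 1.67, and at equal numbers of reads the fewest expected distinct patterns, 231 against 235 to 410. Distinct patterns numbered 309, 455, 246 and 268 in head, spine, organs and EE of +/DR and 120 to 130 in DR/+. Head shared 67 distinct patterns with EE (21.7% of those of head, 25.0% of those of EE). It shared 73 with organs (23.6% and 29.7%) and 119 with spine (38.5% and 26.2%). Spine shared 72 with EE (15.8% of those of spine, 26.9% of those of EE) and 83 with organs (18.2% and 33.7%). Organs shared 55 with EE (22.36% of those of organs, 20.52% of those of EE). In these counts the order depended on which sample was the base, and 201 of the 309 patterns of head were read once. The Bray-Curtis share, which weights each pattern by its reads, set EE apart. It was 24.63% for EE with head, 24.56% with spine and 19.36% with organs. Head and spine had 64.36%, head and organs 64.45%, and spine and organs 51.01%. These shares were not tested.

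Reads from the other end of the product also put EE +/DR below the embryo proper. These 8305 to 11103 reads per sample covered the last 115 bases with CpGs 12 to 20, and the files list their percent methylated without calls for single CpGs. They averaged 82.4% in head, 79.6% in spine, 80.5% in organs and 48.3% in EE of +/DR, and 1.77%, 1.39%, 1.41% and 2.02% of DR/+. For the same CpGs the reads of 20 CpGs gave 77.3%, 73.9%, 75.8% and 42.2% in +/DR, so the other-end reads were 4.68 to 6.05 points higher, and EE minus the embryo proper was -32.5 points in the other-end reads and -33.4 in the reads of 20 CpGs. In DR/+ the order changed: EE was the highest in other-end reads, and EE minus the embryo proper was 0.500 points. Counts per read were compared for 1 recurrent pattern in EE and 1 in organs. The EE patterns of 1060 and 644 reads are methylated at all 9 of these CpGs, and less common patterns were not compared. Other-end reads with 6 of 9 CpGs methylated were 12.9% of EE and 9.51% of organs, against 0.153% of head and 1.75% of spine. The EE pattern of 939 reads and the organs pattern of 606 reads have this count, but which CpGs were methylated in the other-end reads is not listed.

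**Figure D5:**
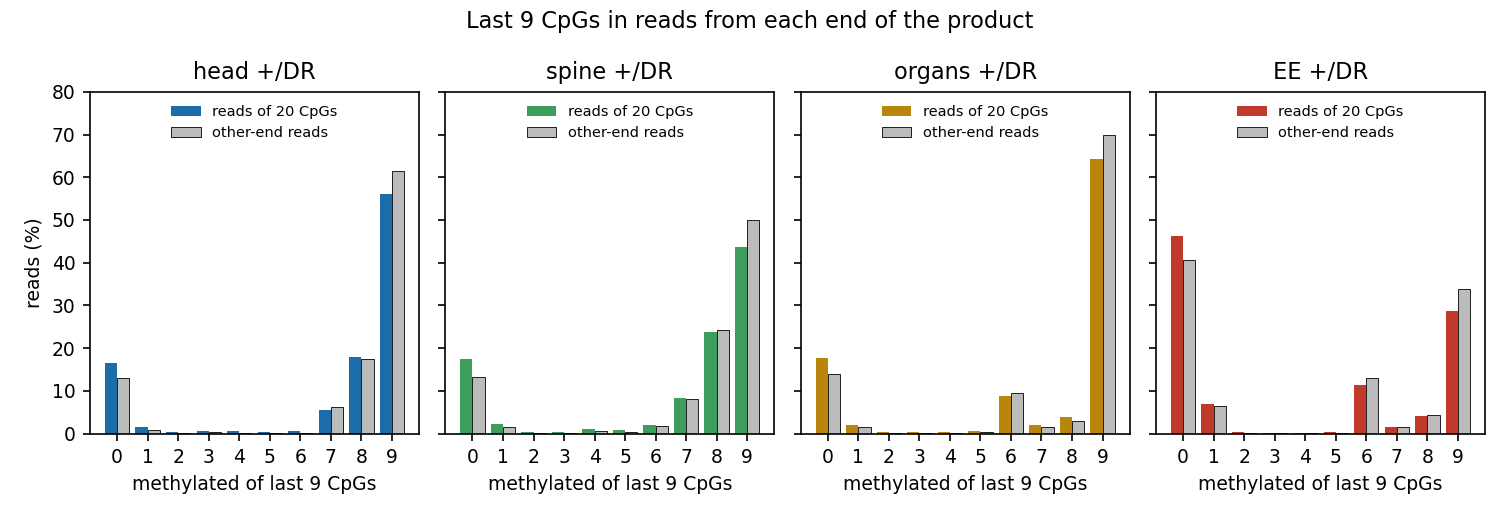
Bars give the percent of reads (vertical axis) by the number of methylated CpGs among the last 9 (horizontal axis) in the +/DR tissues, coloured for reads of 20 CpGs and grey for reads from the other end. Both kinds of read have the peak at 6 of 9 in organs and EE, and the grey bars are higher at 9 and lower at 0 in each tissue.

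The small maternal signal came mostly from reads with few methylated CpGs. Reads above 0 and under 33% brought 0.764, 0.813, 0.753 and 0.931 points of the level in head, spine, organs and EE, and reads over 66% brought 0.240, 0.242, 0.294 and 0.0878 points. Reads with exactly 1 methylated CpG were 12.1% of head, 11.6% of spine, 11.1% of organs and 9.89% of EE of DR/+. The mean level of the 4 samples was highest at CpG 16 (2.29%) and lowest at CpG 12 (0.674%). CpG 16 was at 2.60% in spine, 1.99% in organs, 1.20% in head and 3.39% in EE. Cytosines outside CpG were unconverted at 0.427% to 0.473% in head, spine and organs and at 0.723% in EE. Single CpGs of EE went below that rate, down to 0.194% at CpG 20.

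EE DR/+ differed from head, spine and organs by -0.0257 points in level (exact permutation p = 1, n = 1 against 3), with another distribution over CpGs. It was below all 3 other samples at 15 of 20 CpGs (75%) and above all 3 at 4 CpGs (20%), namely 14, 15, 16 and 18, at 3.17%, 1.93%, 3.39% and 3.85%. The 3 leading mixed patterns stood behind these: methylation at CpG 18 alone (306 reads, 3.52%), at CpGs 14 and 16 together (237 reads, 2.73%) and at CpG 15 alone (140 reads, 1.61%). The pair at CpGs 14 and 16 was found in 0 reads of head and organs and in 0.0128% of spine. Without its 3 leading mixed patterns EE DR/+ was at 0.640%, and head, spine and organs without theirs were at 0.958%, 1.01% and 1.02%.

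The maternal E9.5 level was lower than that of adult tails with the same transmission. It averaged 1.14% ± 0.0275 (SD between tissues, n = 4) against 2.21% ± 0.269 (SD between tails, n = 8), with no overlap. The exact two-sided permutation test gave p = 0.00202, the smallest it can give. Against the 4 tails of the same sequencing run, at 2.17% ± 0.175 (SD, n = 4), the exact permutation test gave p = 0.0286, again its smallest. The difference lay in CpGs 1 to 11, at 1.08% in E9.5 and 3.01% in tails (exact permutation, Benjamini-Hochberg adjusted over 3 tests, p = 0.00303). At CpGs 12 to 20 the means were 1.20% and 1.24% (adjusted p = 0.826), and the first minus last difference differed by -1.89 points between E9.5 and tails (adjusted p = 0.00303). Unconverted cytosines outside CpG averaged 0.519% in E9.5, or 0.451% without EE, against 0.429% in the 8 tails and 0.470% in the 4 of the same run; their part in the difference was not tested. The direction depended on which reads were counted: E9.5 minus tails was 0.272 points in other-end reads, and 7.19 points when reads lacking the first bases were added to every sample. The division at CpG 11 was chosen after the values were seen, and tissue and age differ together between these groups. These permutation tests took each E9.5 tissue as a unit of its own, although the 4 tissues may share embryos. Their p-values therefore do not establish a difference between embryos and adults.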

How the data were processed

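DNA was bisulfite converted, amplified by allele-specific PCR, ligated to adapters, amplified again and sequenced by MiSeq. The authors shortened the read files of the second run, which holds all 8 E9.5 samples, and aligned each read to the unconverted reference with QUMA, run locally (the version is not given in the sources used here). Per the file headers, the deposited counts are whole numbers per read (mismatches, gaps, methylated CpGs, unconverted cytosines outside CpG), not normalized. The deposited percent values per read (identity, methylated CpGs, converted cytosines) were computed by the authors' software, and the identity limit in the header was 90% in 7 of the 8 files and 98% in DR/+ head.

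Reads marked as excluded, under 98% identity or with an unreadable call string (3255 in EE DR/+, 0 to 38 in each other sample) were left out here, which kept 18.2% to 22.7% of listed reads. From the remaining call strings, levels, read classes, patterns and entropy were computed with Python 3.11.15, pandas 2.3.3, NumPy 2.4.6 and SciPy 1.17.1, and the steps were tested on simulated data. Pattern results used reads with 20 calls. The printed p-values are from exact permutation tests over samples, two-sided. The chi-square comparison of read patterns counted reads, which are not independent. Values flagged for a closer look below were singled out by the limit of Dixon's test. Nothing says that the tissues came from separate embryos, so the p-values give no measure of variation between embryos. Where p was the smallest possible, it was set by the number of samples and the shared direction or extreme rank.

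The samples, read classes and rules were chosen with earlier results of these data known. By rule, the CpGs named were those with the highest and lowest level or difference, and the patterns the 3 most common of each transmission. Other CpGs and patterns, the division into CpGs 1 to 11 and 12 to 20, and the use of other-end and later-starting reads were chosen after their values were seen. For reads without call strings the listed percent was used; over all listed reads it includes the primer CpG where a read covers it. The end a read came from was inferred from its numbers of gaps, CpGs and other cytosines. No columns of other samples were read.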

Additional observations from a re-analysis of the deposited data

Results flagged for a closer look

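In a group of 4 samples, a value was singled out where its gap to the nearest other sample took up nearly the whole range of the group. EE +/DR was singled out in 4 measures: its level (39.5%), its share of reads without methylation (44.6%), its share of reads from 33% to 66% (8.67%) and its share of reads over 66% (37.7%). Of 16 groups tested, 4 were singled out, and chance singles out about 1 in 20. The measures share the same reads. All 4 values stand in the report, and no cause was tested.

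Reads outside the comparisons also carried methylation, in all 4 DR/+ samples. Over all listed reads DR/+ spine and organs were at 23.0% and 22.6%, although they had few reads of the classes described next. In DR/+ head, 4864 listed reads (12.6% of those listed) lacked the first 9 or 10 bases of the reference and had a mean listed methylation of 76.0%, with 73.3% of them over 66% (95% Wilson interval 72.1% to 74.5%). In DR/+ EE, 3568 such reads (9.23%) had a mean of 19.9%, with 10.8% over 66% (9.84% to 11.9%) and 63.9% above 0 and under 33%. The main reads of these samples were at 1.11% and 1.12%, and the other 6 E9.5 samples had 0 to 8 such reads. Among the 8 DR/+ tails, 1 had 247 of them, with a mean of 91.3%. Their listed percent is over the 20 CpGs used, without the CpG in the primer.

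A larger class came from the other end of the product and covered the last 144 bases with 13 CpGs. It held 9687 reads in DR/+ head (25.1% of those listed), with a mean of 79.0%, and 6282 in DR/+ EE (16.3%), with a mean of 24.5%. The other 6 E9.5 samples had 3 to 11 such reads and the 8 DR/+ tails 0 to 4. The usual other-end reads of these 2 samples were at 1.77% and 2.02%. Which product or allele either class came from was not tested.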

How the results depend on the processing

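Of the values that alternatives gave for 11 results, 125 kept their direction, 9 reversed and 1 kept it but no longer passed the test. For 10 of the 11 results the smallest possible p is above 0.05, so no alternative could have crossed that threshold. The paternal minus maternal differences and the EE minus embryo proper differences of level, reads without methylation, reads over 66% and level within them, all in +/DR, kept their direction throughout: the difference in level over 4 tissues ran from 29.8 to 75.8 points, EE minus embryo proper from -54.8 to -17.6 points, and the level within reads over 66% from -6.76 to -2.76 points.

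In DR/+, EE minus embryo proper (-0.0257 points) was 0.155 with only fully converted reads, 0.0401 without the first and last CpG, 0.500 in other-end reads and 0.581 over CpGs 12 to 20. It kept its direction but was far larger with other reads counted: -13.9 points over all listed reads and -4.82 with later-starting reads added. E9.5 minus tails (-1.08 points) was 10.6 with all listed reads, 7.19 with later-starting reads added, 0.272 in other-end reads and -0.0369 over CpGs 12 to 20. EE minus embryo proper diversity (-0.518 bits) was 0.368 in windows of 4 CpGs, and ran from -1.11 to 0.117 leaving out 1 tissue at a time. The cause of these reversals was not tested. Other-end reads, later-starting reads, division of the CpGs and removal of recurrent patterns were added after seeing the data.

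Each sample had at least 7031 reads, but reads are not independent molecules, so whether depth limited the levels was not tested. Having 1 sample for each tissue and transmission was a limit: the smallest p of tests within +/DR is 0.25. Without molecular identifiers, recurrent patterns count reads and not templates.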

Other observations

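Reads with few methylated CpGs differed between tissues of +/DR. Reads with exactly 1 methylated CpG were 2.27% of head, 3.42% of spine, 6.78% of organs and 5.82% of EE. In organs, reads with methylation at CpG 8 alone (227 reads, 3.03%) and at CpG 10 alone (130 reads, 1.74%) led. In EE, CpG 16 alone (299 reads, 3.47%) and CpGs 6 and 14 together (179 reads, 2.07%) led.

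If every CpG were called methylated at the rate of unconverted cytosines outside CpG, and independently, 86.5% of EE DR/+ reads would have no methylated CpG, against 85.9% observed. In head, spine and organs of DR/+ the same reckoning gives 90.9% to 91.8%, against 86.1% to 87.0% observed. Calls were not independent, the variance per read being 5.88, 5.59, 6.68 and 3.51 times that of independent CpGs in head, spine, organs and EE. With only fully converted reads their levels were 1.14%, 1.22%, 1.17% and 1.33%, against 1.11%, 1.16%, 1.16% and 1.12% in the main reads. The part of unconverted cytosines in these reads was not tested.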
